A study of Mus musculus with 42 samples.

Results

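The genes described here encode the enzymes, glucose and lactate transporters and glycogen-binding proteins of glycolysis and glycogen metabolism. They were chosen by gene symbol with no cut on a measured value, but earlier results of these data were known when the list was made. The list names 39 genes, and 38 of them had a row in a table of normalized counts for 13809 genes (Aldoc was not analysed here). The table came from RNA sequencing of tibialis anterior, a fast-twitch muscle of the lower leg, of male mice aged 4 months. It held 42 libraries in 11 groups of 3 or 4. Libraries fell into a first set of 22 and a second set of 20, and comparisons were made only within a set.

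Set 1 held wild-type (WT), Sesn1SkM-Tg and Sesn2SkM-Tg mice. Sesn1SkM-Tg mice carry human Sesn1 under the muscle-specific MCK promoter. Sesn2SkM-Tg mice overexpress human Sesn2, which MCK-driven tTA switches on from a tetracycline-regulated promoter. Per the study's methods, each transgenic line had littermates without the transgene as controls. The labels of set 1 say only WT, so which line these WT mice were littermates of is not known. Each genotype of set 1 was sampled in the basal state, meaning mice that underwent no atrophy procedure, and after 3 days in which the right hindlimb was held still by rigid plastic sticks and a bandage (immobilized). Set 2 held WT and Sesn1KO mice, the latter lacking Sesn1 in the whole body and compared with ordinary WT mice, each in the basal and the immobilized state, and a further group of WT mice was denervated by removal of a segment of the right sciatic nerve and, per a heading in the supplement of the study, sampled after 3 days. Every group had 4 libraries except the immobilized WT and Sesn1SkM-Tg groups of set 1, which had 3. Sestrins are stress-induced proteins that restrain mTORC1, and the design asks how inactivity changes muscle and whether the sestrin level alters that change.

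Glycolysis splits glucose 6-phosphate into pyruvate and yields ATP without oxygen, and fast fibers rely on it for short, intense contractions. Glucose 6-phosphate reaches the pathway from blood glucose through transporters and hexokinases, or from glycogen, which phosphorylase breaks down when phosphorylase kinase activates it on nerve stimulation. The compound fructose 2,6-bisphosphate, made and removed by the PFKFB enzymes, is the strongest activator of phosphofructokinase, and muscle exports the lactate it forms through monocarboxylate transporters.

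Library totals of the normalized counts ran from 722430 to 1276770, and the number of reads behind them is unknown. Myh4, the myosin of the fastest fibers, was abundant in all libraries. Summed counts of 6 fast glycolytic fiber markers (Myh4, Myh1, Actn3, Mylk2, Pvalb, Myl1) lay between 78238 and 87130 in basal WT muscle of set 2, between 66158 and 74660 in immobilized and between 24101 and 33479 in denervated muscle. In WT muscle of set 1 they lay between 72214 and 88577 in the basal and between 40208 and 51488 in the immobilized state. A sum of 8 leukocyte markers (Ptprc, Adgre1, Cd68, Csf1r, Lyz2, Itgam, Cd163, Mrc1) was 41.9 to 66.8 in basal and 207 to 404 in immobilized WT muscle of set 1. In set 2 it was 36.7 to 155 in basal, 118 to 228 in immobilized and 50.4 to 129 in denervated WT muscle. No value of the whole table was 0 (the lowest was 0.0048), so a value above 0 does not show that a gene was detected. Sesn1 was raised in basal Sesn1SkM-Tg muscle (41.6 to 77.6 against 14.98 to 22.1 in WT) and Sesn2 in basal Sesn2SkM-Tg muscle (6.54 to 13.03 against 2.18 to 3.39). Both transgenes are human and reads were mapped to mouse transcripts, so these values need not measure the transgenes in full. In muscle labelled Sesn1KO, Sesn1 was low in the basal state (8.41 to 10.05 against 22.5 to 29.7), but after immobilization its libraries (19.4 to 37.3) overlapped those of WT (30.7 to 53.1). In some basal libraries the members' sum stood apart from the rest of the group. In set 1 these were WT replicate 4 (61156 against 44180 to 49930) and Sesn2SkM-Tg replicate 2 (72070 against 52887 to 55597). In set 2 they were WT replicate 4 (61107 against 51714 to 53750) and Sesn1KO replicate 1 (60620 against 51173 to 54213). In a bulk sample, fewer cells of a type and less RNA per cell cannot be told apart.

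Many of these transcripts were lower in inactive WT muscle. Members were called changed when the limma test gave an adjusted p (Benjamini-Hochberg over all genes tested in the set) under 0.05 and the log2 fold change of (normalized count + 1) was at least 0.25 in size. Log2 fold changes are given ± SE of the fit. After denervation of WT muscle, 26 of 38 members were lower and 6 were higher, against 27.7% and 27.8% of the 13629 genes tested. Immobilization lowered 21 and raised 7 in WT muscle of set 2 (background 17.7% and 16.2%), and lowered 19 and raised 6 in WT muscle of set 1 (background 14.5% and 14.9% of 13705 genes). Without basal WT replicate 4 of set 1, a library that stood apart, 18 were lower and 5 higher. Without basal WT replicate 4 of set 2, another such library, 26 were lower and 6 higher after denervation. After immobilization 18 were then lower and 7 higher. The median log2 fold change of the members was -1.03 after denervation, -0.53 after immobilization in set 2 and -0.55 in set 1, beside medians of -0.03, -0.02 and 0.00 over all genes tested. All denervated libraries lay below all basal libraries for 26 members (26.3% of all genes tested) and above them for 6 (27.4%), and the libraries overlapped for the other 6.

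Together the 38 genes made up 5.10% ± 0.384 (SD, n = 4) of the library total in basal WT muscle of set 2, 3.96% ± 0.377 in immobilized and 2.95% ± 0.117 in denervated muscle. In set 1 the share was 4.61% ± 0.501 (n = 4) in basal and 3.29% ± 0.298 (n = 3) in immobilized WT muscle. Summed counts of the members in immobilized muscle were 0.562 of basal in WT of set 1 and 0.712 in WT of set 2, and denervated muscle held 0.420 of the basal sum. Leaving out 7 members with many processed pseudogenes or close copies (Gapdh, Pgk1, Ldha, Tpi1, Eno1, Pgam1 and Aldoa), whose reads can be shared with those copies, gave shares of 2.98%, 2.22% and 1.55% in basal, immobilized and denervated WT muscle of set 2. On each of these shares all inactive WT libraries lay below all basal WT libraries of their set.

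**Figure D1:**
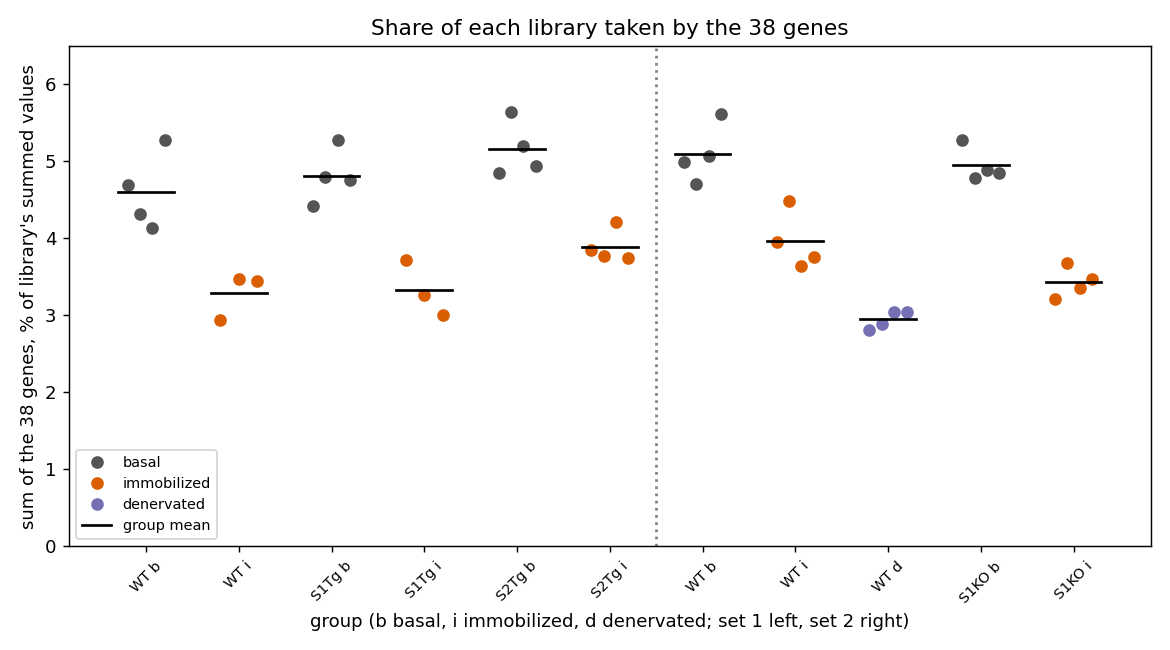
Share of the library's summed normalized counts held by the 38 members, in percent, for each library (points) with the group mean (line), for WT, Sesn1SkM-Tg, Sesn2SkM-Tg and Sesn1KO muscle that was basal (b), immobilized (i) or denervated (d). The denervated WT libraries sit between 2.81% and 3.05%, below the basal WT libraries of set 2 at 4.70% to 5.62%.

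Over the 5 comparisons of immobilized and 1 of denervated against basal muscle, 14 members were lower in all 6: Slc2a4, Pfkm, Tpi1, Pfkfb1, Pgk1, Pgam2, Eno3, Ldha, Gpd1, Pygm, Phka1, Phkb, Phkg1 and Gys1. Only Gbe1, the glycogen branching enzyme, was higher in all 6. In total 26 members were lower in at least 1 comparison and higher in none, and 8 were higher in at least 1 and lower in none. Pfkp, Pgam1 and Gyg were called in both directions, and Slc16a1 in none.

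**Figure D2:**
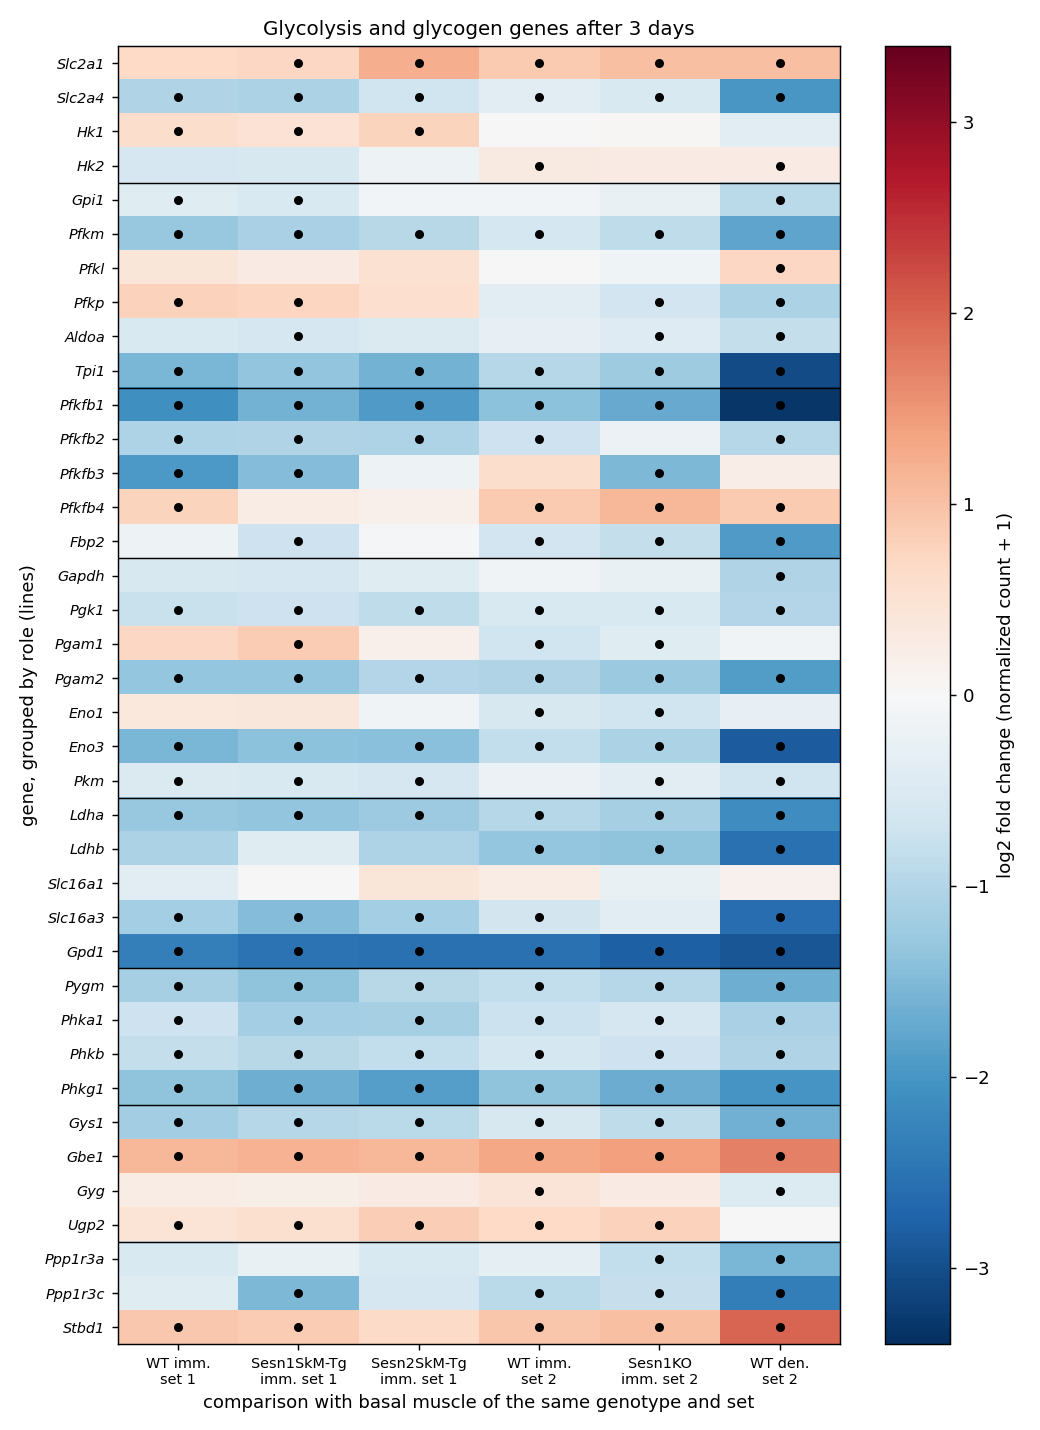
Log2 fold change of (normalized count + 1) against the basal muscle of the same genotype and set, for 38 members (rows, grouped by role) in 5 immobilized groups and 1 denervated group (columns); a black dot marks a member called changed. Blue rows for Tpi1, Eno3, Gpd1, Pfkfb1 and the phosphorylase kinase subunits run across all columns, with Gbe1 higher in each.

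Promoter windows are shown for 6 members: 4 whose falls after denervation were among the largest and the 2 that rose most. Pfkfb1 (log2 fold change -3.32) and Ldhb (-2.54) fell more than Ppp1r3c (-2.36) and had windows, which are not printed. RefSeq tables for GRCm38.p6 gave 53 windows of 300 bases, from 250 before to 50 after a transcription start, for 36 of the 38 members. Each window is printed 5′ to 3′ on the strand of the gene, with capitals marking matches on either strand to any of 4 motifs. These were the core ACGTG bound by HIF and MYC type factors, the palindromic E-box CACGTG that contains it, the element AAGGTCA of the estrogen-related receptors, which reads TGACCTT on the other strand, or the FoxO core GTAAACA. In the order printed, the windows lie at chr6:124814109-124814408 (minus strand), chr11:70656926-70657225 (plus strand), chr11:120948817-120949116 (plus strand), chr19:36736555-36736854 (minus strand), chr16:70313699-70313998 (plus strand) and chr5:92602801-92603100 (plus strand).
Tpi1: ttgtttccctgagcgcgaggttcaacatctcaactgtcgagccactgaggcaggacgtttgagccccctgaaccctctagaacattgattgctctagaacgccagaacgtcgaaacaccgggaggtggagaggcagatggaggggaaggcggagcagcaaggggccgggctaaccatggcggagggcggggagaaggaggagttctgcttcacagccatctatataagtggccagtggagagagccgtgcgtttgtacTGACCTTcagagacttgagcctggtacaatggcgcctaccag
Eno3: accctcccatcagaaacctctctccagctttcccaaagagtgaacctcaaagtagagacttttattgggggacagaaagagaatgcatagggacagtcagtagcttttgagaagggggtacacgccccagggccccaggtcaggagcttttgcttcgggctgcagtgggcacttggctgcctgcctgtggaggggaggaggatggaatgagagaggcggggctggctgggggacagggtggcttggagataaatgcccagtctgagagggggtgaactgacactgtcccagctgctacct
Slc16a3: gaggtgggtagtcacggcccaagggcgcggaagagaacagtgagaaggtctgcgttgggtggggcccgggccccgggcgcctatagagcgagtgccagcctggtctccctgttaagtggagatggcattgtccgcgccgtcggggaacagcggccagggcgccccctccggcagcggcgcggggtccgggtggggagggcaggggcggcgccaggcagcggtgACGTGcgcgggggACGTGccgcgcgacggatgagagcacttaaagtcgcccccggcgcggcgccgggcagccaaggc
Ppp1r3c: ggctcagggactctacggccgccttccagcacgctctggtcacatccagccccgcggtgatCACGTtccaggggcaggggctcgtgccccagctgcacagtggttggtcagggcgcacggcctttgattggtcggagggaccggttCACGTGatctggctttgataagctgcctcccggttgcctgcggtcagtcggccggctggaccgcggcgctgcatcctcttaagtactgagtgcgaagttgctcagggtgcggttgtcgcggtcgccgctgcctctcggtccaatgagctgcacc
Gbe1: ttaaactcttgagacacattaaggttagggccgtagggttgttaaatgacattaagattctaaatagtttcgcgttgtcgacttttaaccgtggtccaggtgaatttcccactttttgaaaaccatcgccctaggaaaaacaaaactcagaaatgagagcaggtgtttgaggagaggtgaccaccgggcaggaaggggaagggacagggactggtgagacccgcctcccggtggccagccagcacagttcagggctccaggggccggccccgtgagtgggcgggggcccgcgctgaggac
Stbd1: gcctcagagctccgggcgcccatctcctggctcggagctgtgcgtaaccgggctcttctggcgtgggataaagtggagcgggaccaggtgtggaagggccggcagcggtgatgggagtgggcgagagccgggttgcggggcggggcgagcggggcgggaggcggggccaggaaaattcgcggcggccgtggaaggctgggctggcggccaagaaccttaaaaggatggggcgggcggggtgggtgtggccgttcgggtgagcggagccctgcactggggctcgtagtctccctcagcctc

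The Tpi1 window held AAGGTCA on the other strand, beginning 8 bases after the start. Slc16a3 held ACGTG beginning 27 and 14 bases before the start, and Ppp1r3c held it at 189, 104 and 103 bases, the last pair being both strands of CACGTG. Eno3, Gbe1 and Stbd1 held no match to any of the 4 motifs. ACGTG was present in 23 of the 53 member windows (43.4%) against 19.6% of all 32851 windows, CACGTG in 8 (15.1% against 7.15%), AAGGTCA in 3 (5.66% against 4.72%) and GTAAACA in 0 against 3.65%. By gene, ACGTG occurred in 12 of the 24 members with a window that were lower after denervation, in 2 of the 6 that were higher and in 5 of the 6 that were not called. These shares were not tested, and a match is a description of the letters only.

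Of the genes for glucose entry, Slc2a4 encodes GLUT4, the insulin- and contraction-responsive transporter of muscle, and Slc2a1 encodes GLUT1, the transporter of most other cells. For Slc2a4 the normalized counts were 570.3, 557, 562 and 669.6 in basal, 442, 493, 432 and 478 in immobilized and 145, 115, 159 and 184 in denervated WT muscle of set 2. The groups were separate, and Slc2a4 fell 3.94-fold after denervation (log2 fold change -1.98 ± 0.12, adjusted p = 2.02e-11). The fall after immobilization was smaller in set 2 (log2 fold change -0.35, adjusted p = 0.0269, lost without basal replicate 4 or immobilized replicate 1 or 3, up to 0.0894) than the -1.04 of set 1, a difference between sets that was not tested. Slc2a1 moved the other way, from 6.93, 6.35, 6.68 and 3.83 in basal to 10.8, 12.7, 15.2 and 8.49 in immobilized and 14.99, 11.5, 13.6 and 11.96 in denervated WT muscle of set 2 (denervated against basal, log2 fold change 1.03 ± 0.26, adjusted p = 0.00185). Both inactive groups lay above the basal group, and Slc2a1 rose in 4 of the 5 immobilization comparisons, WT of set 1 (log2 fold change 0.68, adjusted p = 0.0606) being the exception. In Sesn1SkM-Tg muscle its libraries overlapped basal ones, and the call was lost without any one of basal replicates 1, 2 and 3 or immobilized replicates 1 and 3.

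Hexokinases trap glucose by phosphorylation: Hk2 is the main muscle form and Hk1 the form of most tissues. Hk2 lay at 374, 374, 348 and 410.0 in basal, 437, 522, 449 and 443 in immobilized and 429, 515, 453 and 433 in denervated WT muscle of set 2. Neither inactive group overlapped the basal one, but the rise was small after immobilization (log2 fold change 0.30 ± 0.11, adjusted p = 0.0461) and denervation (log2 fold change 0.28 ± 0.11, adjusted p = 0.04). The first call was lost without any one of 7 of the 8 libraries (adjusted p up to 0.142), and the second without basal replicate 1, 2 or 3 or denervated replicate 2 or 3 (up to 0.13). In set 1 Hk2 was lower and not called (log2 fold change -0.57, adjusted p = 0.0511). Hk1 was higher in immobilized WT muscle of set 1 (8.40, 9.62 and 12.6 against 6.03, 5.53, 6.92 and 6.75; log2 fold change 0.60 ± 0.17, adjusted p = 0.0135), a call lost without immobilized replicate 3 (adjusted p = 0.112), and did not differ detectably in set 2 (0.01). In immobilized WT muscle of set 1 all 8 leukocyte markers were higher too, and their part in the Hk1 value was not tested.

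Between glucose 6-phosphate and the triose phosphates, 5 of 6 members were lower and 1 was higher after denervation. Tpi1, triose phosphate isomerase, showed the largest fall of these. It measured 2305, 2295, 2331 and 2555 in basal, 1182, 1260.1, 1126 and 1233 in immobilized and 261, 256, 299 and 331 in denervated WT muscle of set 2. The 3 groups did not overlap, and Tpi1 fell 8.28-fold after denervation (log2 fold change -3.05 ± 0.13, adjusted p = 1.44e-13) and 1.98-fold after immobilization (log2 fold change -0.98 ± 0.13, adjusted p = 4.87e-06). In set 1 it fell from 1664, 1543, 1653 and 3082 to 481, 813 and 673 (log2 fold change -1.57 ± 0.27, adjusted p = 0.000326), basal replicate 4 lying far above the other basal libraries. With any one library left out, the log2 fold change lay within -1.74 to -1.33, and the call was kept.

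Pfkm, the muscle form of phosphofructokinase, which commits glucose to glycolysis, was at 4547, 4479, 4362 and 5197 in basal, 3114, 3469, 2905 and 2883 in immobilized and 1247, 1226, 1473 and 1372 in denervated WT muscle of set 2. All 3 groups were separate (log2 fold change -1.80 ± 0.09, adjusted p = 3.2e-12 for denervated against basal). The liver-type isoform Pfkl was scarce and rose after denervation, from 7.26, 7.67, 6.97 and 4.89 to 12.2, 11.2, 12.5 and 10.1 (log2 fold change 0.71 ± 0.18, adjusted p = 0.00168), with no call after any immobilization (-0.13 to 0.52). Pfkp, the platelet-type isoform, fell after denervation from 5.61, 5.40, 6.52 and 6.81 to 3.15, 2.21, 2.01 and 2.18 (log2 fold change -1.07 ± 0.18, adjusted p = 4.27e-05). It was called in opposite directions after immobilization: higher in set 1, in WT (log2 fold change 0.78, adjusted p = 0.0195, lost without basal replicate 1, 0.0516, or immobilized replicate 3, 0.167) and Sesn1SkM-Tg muscle (0.74), and lower in Sesn1KO muscle (-0.65). The Sesn1SkM-Tg call was lost without basal replicate 1 or 4 or immobilized replicate 2 or 3 (adjusted p up to 0.121). In both of these set 1 comparisons all 8 leukocyte markers were higher too, and their part was not tested.

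Gpi1, the isomerase of glucose 6-phosphate, had 860.4 to 1051 in basal, 759 to 1113 in immobilized and 443 to 559 in denervated WT muscle of set 2. It fell after denervation (log2 fold change -0.92 ± 0.11, adjusted p = 6.43e-07). The immobilized and basal libraries of set 2 overlapped, and the call in WT muscle of set 1 (-0.42, adjusted p = 0.0463) was lost without any one of 6 of 7 libraries (adjusted p up to 0.143). Aldoa, aldolase A, the most abundant member per kb of exon, fell from 15216, 14429.5, 14353 and 16557 to 7633, 8297, 9432 and 9580.3 after denervation (log2 fold change -0.80 ± 0.13, adjusted p = 3.5e-05). That fall depended on the scaling: quantile normalization gave 0.03 (adjusted p = 0.843).

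The PFKFB enzymes went in different directions. Pfkfb1 lay at 55.5, 55.8, 53.9 and 52.9 in basal, 18.01, 19.7, 19.4 and 24.2 in immobilized and 3.89, 3.91, 4.45 and 6.33 in denervated WT muscle of set 2. These groups were far apart, and Pfkfb1 had the largest fall of any member after denervation (9.97-fold on the scale of normalized count + 1; log2 fold change -3.32 ± 0.14, adjusted p = 1.51e-13), with log2 fold changes of -2.10 to -1.39 after immobilization. Pfkfb4 instead rose from 48.8, 48.01, 48.2 and 57.7 to 92.1, 109, 95.8 and 81.2 after immobilization and 78.9, 90.6, 99.8 and 108 after denervation. Both inactive groups lay above the basal one and overlapped each other. The fit gave log2 fold change 0.88 ± 0.13, adjusted p = 2.94e-05 after immobilization and log2 fold change 0.88 ± 0.13, adjusted p = 8.75e-06 after denervation. Pfkfb4 was also called higher in immobilized WT muscle of set 1 (0.76) and in Sesn1KO muscle (1.14), while the values of 0.26 in Sesn1SkM-Tg and 0.17 in Sesn2SkM-Tg muscle were not called.

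Pfkfb2 fell in every comparison with basal muscle except that of Sesn1KO (-0.21), for example from 15.3, 14.8, 16.02 and 15.7 to 7.82, 6.73, 8.28 and 6.59 after denervation (log2 fold change -0.98 ± 0.16, adjusted p = 2.61e-05). Pfkfb3 was the most variable of the 4, at 179.8, 41.1, 151 and 112 in basal, 191, 306, 124 and 89.9 in immobilized and 129, 59.5, 125 and 246 in denervated WT muscle of set 2, where the groups overlapped and no change was called. In set 1 it fell from 512, 489, 347 and 236 to 131, 67.6 and 101 in WT muscle (log2 fold change -1.96 ± 0.31, adjusted p = 0.000166), with no overlap. Fbp2, the muscle fructose bisphosphatase, which runs the phosphofructokinase step backwards, fell from 40.9, 33.9, 44.7 and 45.9 to 6.24, 12.8, 12.5 and 9.80 after denervation (log2 fold change -1.94 ± 0.21, adjusted p = 1.09e-07). After immobilization in set 2 the libraries, at 17.2, 21.1, 31.8 and 38.1, overlapped the basal ones (log2 fold change -0.65, adjusted p = 0.0207). That call was lost without basal replicate 3 or 4 or immobilized replicate 1 or 2 (adjusted p up to 0.093).

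**Figure D3:**
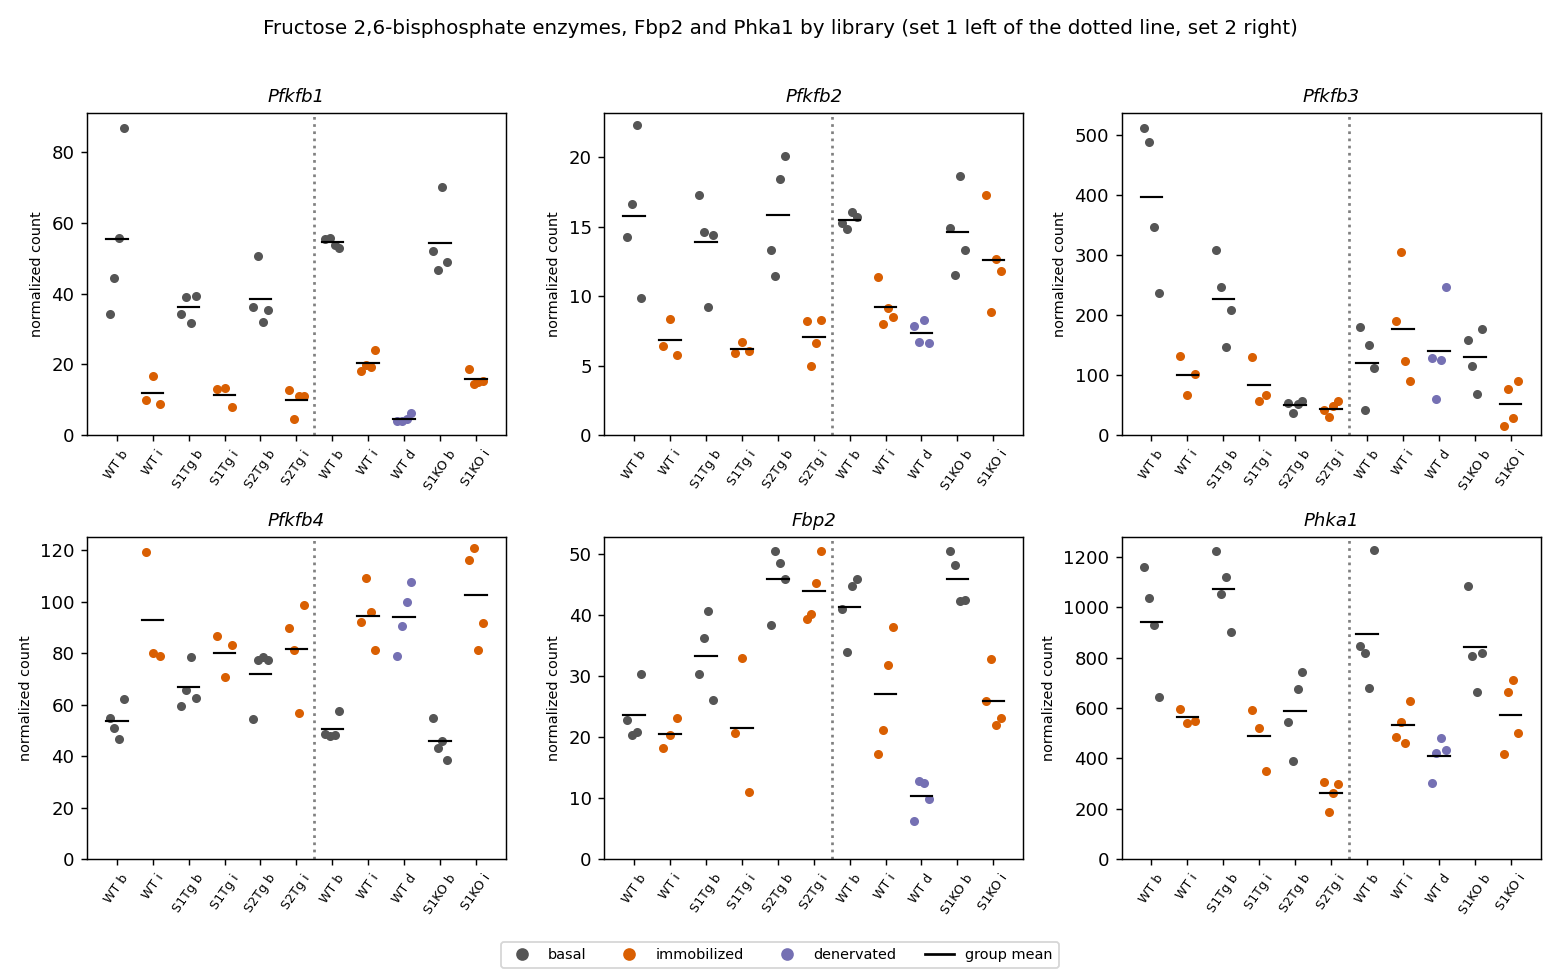
Normalized counts of Pfkfb1 to Pfkfb4, Fbp2 and Phka1 in each library (points) with group means (lines), over the 11 groups; a dotted line separates the sets. Pfkfb1 drops in each inactive group, to 3.89 to 6.33 after denervation, while Pfkfb3 spreads widely and is low in basal Sesn2SkM-Tg muscle.

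From triose phosphate to pyruvate, 5 of 7 members were lower and none was higher after denervation. Eno3, the muscle enolase, fell most. Its values were 5455, 5609, 5678 and 6160.3 in basal, 3421, 3557, 3010.1 and 2964 in immobilized and 724, 784, 832 and 918 in denervated WT muscle of set 2. Each group was separate from the others, and the fall was 7.04-fold after denervation (log2 fold change -2.82 ± 0.11, adjusted p = 1.14e-13) and 1.77-fold after immobilization (log2 fold change -0.83 ± 0.11, adjusted p = 1.13e-05). Eno1, the enolase of most tissues, was at 75.9, 69.5, 87.8 and 87.5 in basal, 49.6, 54.1, 49.5 and 66.4 in immobilized and 90.6, 74.2, 55.8 and 49.8 in denervated muscle. It fell after immobilization (log2 fold change -0.54 ± 0.17, adjusted p = 0.0193, lost without basal replicate 3 or 4 or immobilized replicate 1 or 3, up to 0.0563), and the denervated libraries overlapped the basal ones.

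Pgam2, the muscle phosphoglycerate mutase, repeated the pattern of Eno3, with 1466, 1505, 1682 and 1820.4 in basal, 732, 826, 768 and 845 in immobilized and 397, 405, 440.0 and 488 in denervated WT muscle of set 2. The groups were separate, with a fall of 3.73-fold after denervation (log2 fold change -1.90 ± 0.10, adjusted p = 3.75e-12). Its general form Pgam1 had 19.2, 19.3, 16.9 and 22.1 in basal, 10.3, 10.3, 12.5 and 14.2 in immobilized and 18.5, 19.9, 16.7 and 16.01 in denervated muscle. Of these inactive groups only the immobilized one was called lower for Pgam1 (log2 fold change -0.67 ± 0.14, adjusted p = 0.000719). In Sesn1SkM-Tg muscle of set 1 Pgam1 was higher after immobilization (log2 fold change 0.86, adjusted p = 0.0321), but without immobilized replicate 3 the value was 0.42 (adjusted p = 0.315). Pgk1, phosphoglycerate kinase, which makes the first ATP of this stretch, fell in both set 2 comparisons, with 902 to 1115 in basal, 585 to 826 in immobilized and 472 to 524 in denervated muscle (log2 fold changes -0.52 and -0.98). Gapdh, glyceraldehyde phosphate dehydrogenase, was at 1262, 1351, 1327 and 1485 in basal and 610.0, 621, 752 and 678 in denervated muscle (log2 fold change -1.03 ± 0.11, adjusted p = 8.52e-08), and no immobilization comparison called it (-0.58 to -0.11). Pkm, pyruvate kinase, fell after denervation (log2 fold change -0.67, adjusted p = 9.4e-05) and in WT muscle of set 1 (-0.48, adjusted p = 0.037, lost without basal replicate 1 or 4 or immobilized replicate 1 or 3, up to 0.191). Quantile normalization turned these values to 0.22 and 0.0052.

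Ldha, the lactate dehydrogenase subunit of fast muscle, went from 2799, 2769, 2734 and 3063 in basal to 1514, 1554, 1311 and 1450.4 in immobilized and 592, 676, 693 and 672 in denervated WT muscle of set 2. The fall was 4.31-fold after denervation (log2 fold change -2.11 ± 0.11, adjusted p = 2.24e-12). Ldhb, the subunit of heart and oxidative fibers, fell from 150.1, 165, 133 and 70.02 in basal to 52.2, 49.6, 48.3 and 47.1 in immobilized and 19.9, 18.1, 21.8 and 21.8 in denervated muscle (denervated against basal, log2 fold change -2.54 ± 0.22, adjusted p = 3.17e-09). All 3 groups were separate for both genes. Ldhb was not called in any immobilization comparison of set 1 (-1.08, -0.42 and -1.05 in WT, Sesn1SkM-Tg and Sesn2SkM-Tg muscle), where its basal WT values of 34.7, 58.1, 131 and 177 were widely spread. The sum of 6 slow and oxidative fiber markers (Myh7, Myl2, Tnnt1, Tnni1, Myh2, Myl3) was 590.1 to 1498 in basal WT muscle of set 2. It was 1358 to 2578 in immobilized and 133 to 281 in denervated muscle. The markers did not move as 1: after immobilization 3 were called higher and 0 lower. After denervation 1 was called higher, 2 lower and 3 were not called (median log2 fold change -0.18). Their part in the Ldhb values was not tested.

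Slc16a3 encodes MCT4, which exports lactate from glycolytic fibers, and Slc16a1 encodes MCT1, which mainly takes it up. Slc16a3 fell from 369, 359, 342 and 500.1 in basal to 240.1, 298, 213 and 261 in immobilized and 57.1, 57.9, 63.6 and 77.7 in denervated WT muscle of set 2. There was no overlap between any pair of these groups, and the denervation change was 6.02-fold (log2 fold change -2.59 ± 0.16, adjusted p = 3.5e-11). Slc16a1 kept overlapping values, 46.5 to 64.8 in basal and 57.5 to 65.9 in denervated muscle, and passed the test in no comparison (log2 fold change 0.16, 95% interval -0.12 to 0.43 after denervation).

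Gpd1, cytosolic glycerol 3-phosphate dehydrogenase, which regenerates NAD+ for glycolysis and supplies glycerol 3-phosphate, was the member that fell most after immobilization. It lay at 743, 738, 810.0 and 906 in basal, 158, 194, 95.5 and 121 in immobilized and 93.6, 86.4, 108 and 135 in denervated WT muscle of set 2. The inactive groups were far below the basal group and overlapped each other. Its fall was 5.77-fold after immobilization (log2 fold change -2.53 ± 0.19, adjusted p = 8.63e-09) and 7.58-fold after denervation (log2 fold change -2.92 ± 0.19, adjusted p = 8.27e-11), and the denervated and immobilized groups did not differ past the threshold (-0.39, adjusted p = 0.114). In set 1 it fell from 566, 508, 447 and 829 to 118, 123 and 99.2 (log2 fold change -2.33 ± 0.25, adjusted p = 5.73e-06). Gpd1 is also abundant in fat cells. The sum of 4 adipocyte markers (Adipoq, Plin1, Fabp4, Cfd) was 131 to 204 in basal, 82.1 to 141 in immobilized and 66.8 to 89.8 in denervated WT muscle of set 2. In WT muscle of set 1 that sum was 95.9 to 141 in basal and 147 to 250.4 in immobilized libraries, most of it from Fabp4, the 1 marker of the 4 that rose (log2 fold change 0.91, limma adjusted p = 0.00169). Adipoq (-0.71), Plin1 (-0.62) and Cfd (-0.88) were not called there. The part of fat cells in the fall of Gpd1 was not tested.

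All 4 glycogen breakdown genes were lower in each of the 6 comparisons with basal muscle. Pygm, muscle glycogen phosphorylase, was at 7654, 6513, 7421 and 8660.4 in basal, 4259, 4889, 3789 and 3950.3 in immobilized and 1880.5, 2325, 2687 and 2740.4 in denervated WT muscle of set 2. These groups were separate, with a fall of 3.16-fold after denervation (log2 fold change -1.66 ± 0.13, adjusted p = 9.26e-10) and 1.79-fold after immobilization (log2 fold change -0.84 ± 0.13, adjusted p = 4.12e-05). Phkg1, the catalytic subunit of phosphorylase kinase in muscle, had 529, 515, 498 and 648 in basal, 220.0, 233, 167 and 222 in immobilized and 117, 98.02, 154 and 191 in denervated muscle. Both inactive groups lay below the basal one and overlapped each other. The fall was 2.60-fold after immobilization (log2 fold change -1.38 ± 0.16, adjusted p = 2.1e-06) and 4.00-fold after denervation (log2 fold change -2.00 ± 0.16, adjusted p = 1.86e-09).

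The regulatory subunits of phosphorylase kinase had smaller changes. Phka1, the alpha subunit of muscle, had 678 to 1227 in basal and 301 to 482 in denervated WT muscle of set 2 (log2 fold change -1.11 ± 0.19, adjusted p = 4.4e-05). Phkb, the beta subunit, had 479 to 594 in basal and 213 to 299 in denervated muscle (log2 fold change -1.03 ± 0.12, adjusted p = 2.68e-07). In WT muscle of set 1 their calls (log2 fold changes -0.71 and -0.81) were lost without basal replicate 1 or 2 or immobilized replicate 2 or 3. Phkb was lost without basal replicate 3 as well, and adjusted p reached 0.0839 for Phka1 and 0.116 for Phkb.

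Glycogen synthesis genes did not move together. Gys1, muscle glycogen synthase, fell from 548, 563, 533 and 596 in basal to 352, 390.3, 404 and 382 in immobilized and 188, 177, 199.7 and 158 in denervated WT muscle of set 2. Those groups were separate (log2 fold change -1.63 ± 0.11, adjusted p = 1.12e-10 for denervated against basal). Gbe1, whose enzyme adds the branches to the growing polymer, rose from 77.8, 95.6, 76.5 and 86.7 in basal to 209.7, 215, 199.5 and 211 in immobilized and 253, 286, 285 and 278 in denervated muscle. No library overlapped between any pair of the 3 groups, and Gbe1 was 2.47-fold higher after immobilization (log2 fold change 1.31 ± 0.09, adjusted p = 3.6e-09) and 3.26-fold higher after denervation (log2 fold change 1.70 ± 0.09, adjusted p = 6.11e-12). The same direction held in the other 4 immobilization comparisons, with log2 fold changes of 1.12 in WT muscle of set 1, 1.19 in Sesn1SkM-Tg, 1.14 in Sesn2SkM-Tg and 1.38 in Sesn1KO muscle.

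Ugp2, which makes the UDP-glucose used by glycogen synthase, and Gyg, glycogenin, the protein primer of glycogen, rose after immobilization in WT muscle of set 2 but not after denervation. Ugp2 was called higher in all 5 immobilization comparisons, though its calls in WT and Sesn1SkM-Tg muscle of set 1 did not survive every left-out library. Gyg was called higher in only 1, that of WT muscle of set 2. Ugp2 was at 830.3, 854, 785 and 929 in basal, 1176, 1719, 1446 and 1168 in immobilized and 698, 834, 1016 and 879.5 in denervated WT muscle of set 2 (immobilized against basal, log2 fold change 0.68 ± 0.15, adjusted p = 0.0015). Denervated libraries overlapped the basal ones for Ugp2 (log2 fold change 0.00, 95% interval -0.31 to 0.32). Gyg had 347, 327, 319.6 and 349 in basal, 421, 541, 462 and 395 in immobilized and 191, 212, 296 and 282 in denervated muscle. It was higher after immobilization (log2 fold change 0.43 ± 0.13, adjusted p = 0.0138), a call lost without immobilized replicate 2 (adjusted p = 0.0589), and lower after denervation (log2 fold change -0.48 ± 0.13, adjusted p = 0.0036), a call lost with a common library total and with quantile normalization.

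Stbd1, a protein that tethers glycogen to membranes, rose from 41.1, 44.5, 49.2 and 50.2 in basal to 91.4, 96.2, 84.1 and 88.7 in immobilized and 184, 204, 183 and 169 in denervated WT muscle of set 2. The groups formed 3 separate steps, 1.93-fold (log2 fold change 0.95 ± 0.16, adjusted p = 7.81e-05) and 3.94-fold (log2 fold change 1.98 ± 0.16, adjusted p = 9.73e-10) above basal muscle. In WT muscle of set 1 immobilized libraries overlapped basal ones, and the call (log2 fold change 0.91, adjusted p = 0.0355) was lost without any one of 5 of 7 libraries (basal replicate 1, 2 or 3 or immobilized replicate 2 or 3, up to 0.146).

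The targeting subunits of protein phosphatase 1, which bring the phosphatase to glycogen, fell after denervation. Ppp1r3c was at 315, 318, 249 and 451 in basal, 162, 217, 163 and 155 in immobilized and 50.02, 53.8, 76.1 and 74.8 in denervated WT muscle of set 2. The 3 groups were separate. Ppp1r3c fell 1.88-fold after immobilization (log2 fold change -0.91 ± 0.17, adjusted p = 0.000242) and 5.14-fold after denervation (log2 fold change -2.36 ± 0.17, adjusted p = 2.06e-10). Ppp1r3a, the main muscle targeting subunit, had 465, 458, 500.0 and 544 in basal and 161, 146, 165 and 204 in denervated muscle (log2 fold change -1.55 ± 0.13, adjusted p = 2.64e-09), and its immobilized WT libraries (355, 487, 404 and 366) overlapped the basal ones. In set 1 Ppp1r3a was far below the rest of its group in basal WT replicate 4 (167 against 548 to 622) and in basal Sesn2SkM-Tg replicate 2 (151 against 421 to 451). The members' sum was high in both of these libraries.

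**Figure D4:**
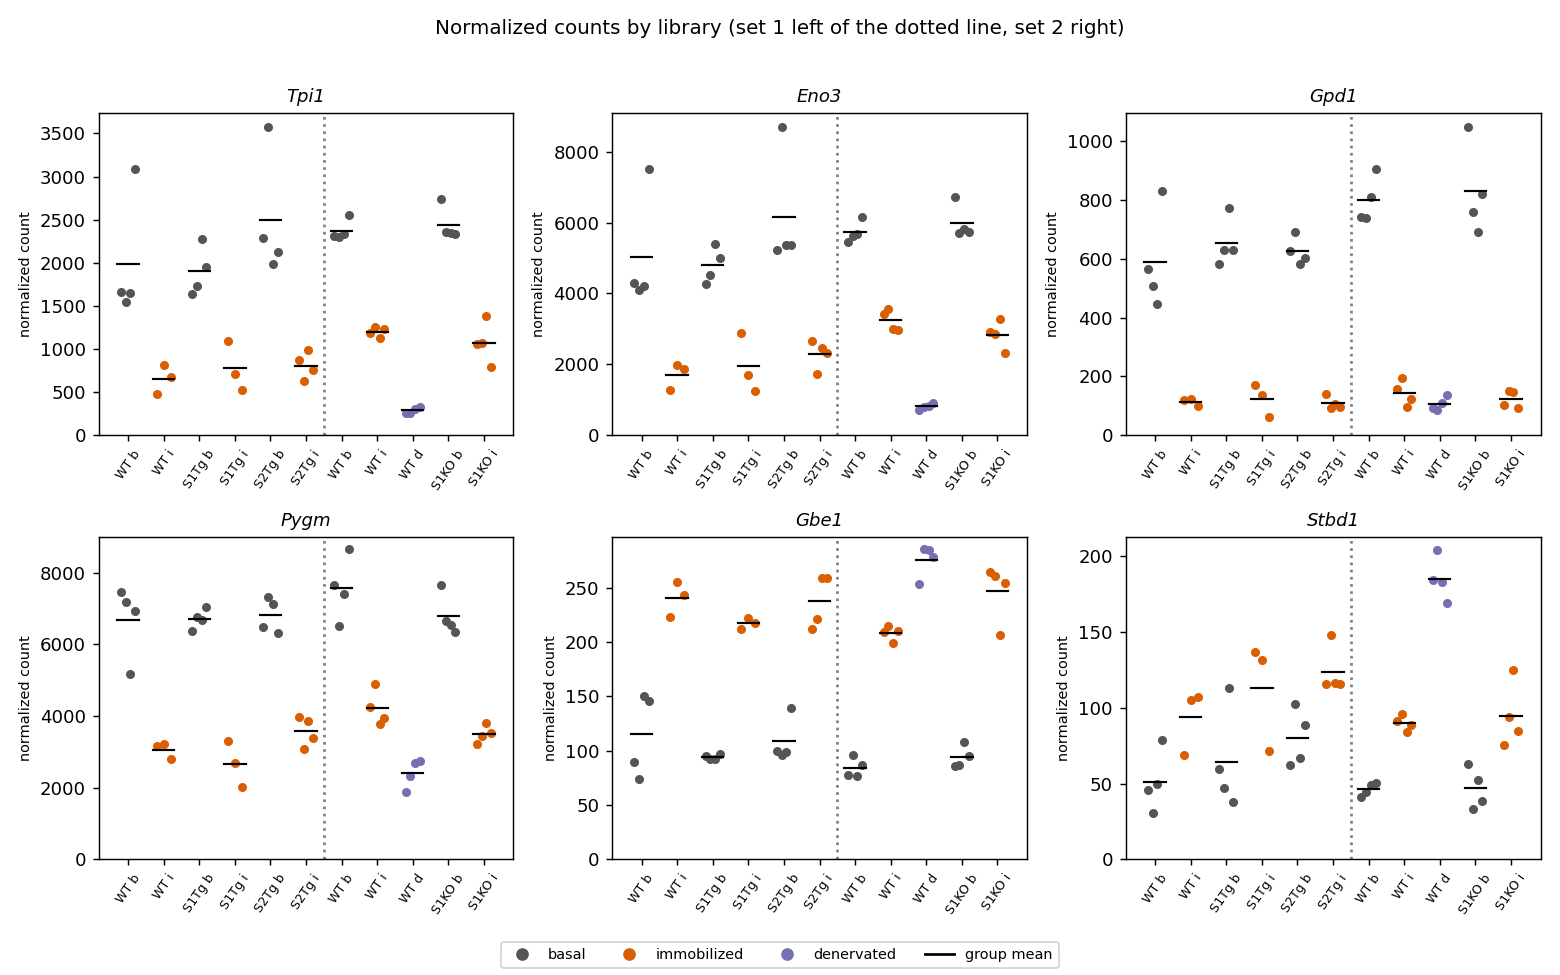
Normalized counts of Tpi1, Eno3, Gpd1, Pygm, Gbe1 and Stbd1 in each library (points) with group means (lines), over the 11 groups; a dotted line separates the sets. Tpi1, Eno3 and Pygm step down from basal to immobilized to denervated WT muscle of set 2, Gpd1 is low in both inactive states, and Gbe1 and Stbd1 step up.

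Denervation and immobilization of WT muscle in set 2 were compared directly. Denervated muscle was lower for 24 and higher for 4 of 38 members, against 18.4% and 20.5% of all genes, with a median log2 difference of -0.65 beside -0.02 over all genes. Tpi1 (log2 fold change -2.07 ± 0.13, adjusted p = 1.25e-10) and Eno3 (log2 fold change -1.99 ± 0.11, adjusted p = 5.38e-11) differed most. Next came Slc16a3 (log2 fold change -1.97 ± 0.16, adjusted p = 7.74e-09), Pfkfb1 (log2 fold change -1.93 ± 0.14, adjusted p = 1.05e-09) and Slc2a4 (log2 fold change -1.63 ± 0.12, adjusted p = 1.56e-09). Denervated libraries lay below all immobilized ones for each of these 5. Of the 4 members higher in denervated muscle, Stbd1 (log2 fold change 1.03 ± 0.16, adjusted p = 2.14e-05) and Pfkl (log2 fold change 0.69 ± 0.18, adjusted p = 0.00338) differed most. The others were Pgam1 (log2 fold change 0.55 ± 0.14, adjusted p = 0.00294) and Gbe1 (log2 fold change 0.40 ± 0.09, adjusted p = 0.0019). The calls for Pfkp, Aldoa, Pgk1, Pkm, Pygm, Phkb, Phkg1 and Ugp2 each ended under at least 1 other scaling or filter. Quantile normalization turned the difference of Pgk1 from -0.47 to 0.02 and that of Pkm from -0.46 to 0.30.

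Scaling each library to the same total moved the split between lower and higher members, since the inactive libraries had smaller totals. It shifted the median of all genes upward by 0.28 (log2) in WT muscle of set 1, 0.38 after denervation and 0.28 for denervated against immobilized muscle. Under it, WT muscle of set 1 had 15 lower and 10 higher members in place of 19 and 6 (60.0% of the called members lower against 76.0%), and denervated against immobilized muscle had 17 and 7 in place of 24 and 4 (70.8% against 85.7%). After denervation the split was 24 and 8 in place of 26 and 6.

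Immobilization was also measured in the 3 sestrin genotypes. In Sesn1SkM-Tg muscle 22 members were lower and 7 higher (background 16.5% and 18.2%; median -0.64 beside -0.01 over all genes). The largest falls were in Gpd1 (-2.52), Phkg1 (-1.66), Pfkfb1 (-1.60), Ppp1r3c (-1.54) and Slc16a3 (-1.49), and the largest rises in Gbe1, Stbd1, Pgam1, Pfkp and Slc2a1 (1.19, 0.87, 0.86, 0.74 and 0.71 as log2 fold changes). Among these rises Gbe1 alone stayed called whichever library was dropped. The calls of Stbd1 and Slc2a1, whose libraries overlapped basal ones, each ended without any one of 5 of the 7 libraries (adjusted p up to 0.14 and 0.319) and with only the groups compared in the fit. Without immobilized replicate 3 the count of called members went from 29 to 19. Scaled to a common total it was 17 lower and 9 higher (65.4% lower against 75.9%), with the median of all genes shifted by 0.26, and with only the groups compared in the fit it was 20 and 3 (87.0%).

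In Sesn2SkM-Tg muscle 17 members were lower and 4 higher (background 15.7% and 15.0%; median -0.55 beside 0.00). Gpd1 (-2.53), Pfkfb1 (-1.92), Phkg1 (-1.88), Tpi1 (-1.61) and Eno3 (-1.41) fell most on the log2 scale, and the 4 that rose were Slc2a1 (1.22), Gbe1 (1.14), Ugp2 (0.83) and Hk1 (0.77). A common total gave 14 lower and 10 higher (58.3% lower against 81.0%), with the median of all genes shifted by 0.25. Leaving out basal replicate 2, the library that stood apart, gave 17 lower and 6 higher.

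In muscle labelled Sesn1KO 24 members were lower and 5 higher after immobilization (background 19.9% and 17.2%; median -0.55 beside -0.03). The largest falls on the log2 scale were in Gpd1 (-2.77), Pfkfb1 (-1.70), Phkg1 (-1.69), Pfkfb3 (-1.53, lost without basal replicate 1, 2 or 4 or immobilized replicate 1 or 3, adjusted p up to 0.125) and Ldhb (-1.37). Gbe1 (1.38), Pfkfb4 (1.14), Slc2a1 (1.02), Stbd1 (1.02) and Ugp2 (0.80) rose. Leaving out basal replicate 1, the library that stood apart, gave 21 lower and 5 higher.

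Whether the immobilization response itself differed by genotype was tested as an interaction. None of the 38 members passed for Sesn1SkM-Tg (background 0%), Sesn2SkM-Tg (0.00730%) or Sesn1KO (0.0220%), and at an unadjusted p under 0.05 there were 1, 3 and 4 members (2.93%, 7.35% and 7.98% of all genes). The largest differences were in Ppp1r3c for Sesn1SkM-Tg (-1.12, 95% interval -2.19 to -0.05) and in Pfkfb3 for the others. Pfkfb3 differed by 1.78 in Sesn2SkM-Tg minus WT (95% interval 0.90 to 2.66, limma adjusted p = 0.156) and by -2.12 in Sesn1KO minus WT (-3.69 to -0.54, adjusted p = 0.462). Intervals for Gpd1 were -0.93 to 0.54, -0.91 to 0.50 and -0.81 to 0.33 in Sesn1SkM-Tg, Sesn2SkM-Tg and Sesn1KO, and those for Gbe1 were -0.47 to 0.62, -0.51 to 0.54 and -0.20 to 0.35.

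Genotypes were then compared within a state. Between Sesn1SkM-Tg and WT muscle limma called no member in the basal state (background 0.0292%) or after immobilization (0.00730%), with 3 and 0 members at an unadjusted p under 0.05 (3.63% and 3.04% of all genes). The 3 were Pfkfb3 (-0.78), Fbp2 (0.48) and Ppp1r3c (0.82), given as log2 fold changes. Between Sesn2SkM-Tg and WT muscle 2 members were called in the basal state (background 2.50%) and 4 after immobilization (2.94%). At an unadjusted p under 0.05 there were 11 and 12, beside 15.6% and 19.2% of all genes. For Sesn1KO against WT none was called in the basal state (0.147%) and 1 after immobilization (0.947%). At an unadjusted p under 0.05 there were 1, Slc16a1 at 0.44, and 10, beside 4.64% and 14.1% of all genes.

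Pfkfb3 had the largest genotype difference. It was at 53.3, 36.2, 52.7 and 57.2 in basal Sesn2SkM-Tg muscle and 512, 489, 347 and 236 in basal WT muscle of set 1. The libraries did not overlap, and Pfkfb3 was 7.58-fold lower in the transgenics (log2 fold change -2.92 ± 0.29, adjusted p = 5.72e-06), a call kept with any one library left out. After immobilization the Sesn2SkM-Tg libraries had 42.6, 29.7, 48.6 and 56.3 and the WT libraries 131, 67.6 and 101 (log2 fold change -1.14 ± 0.31, adjusted p = 0.0489), a call lost without Sesn2SkM-Tg replicate 1, 2 or 3 or WT replicate 1 or 3 (adjusted p 0.084 to 0.174) and with a pseudocount of 0.1, no filter or no trend. Fbp2 was higher in Sesn2SkM-Tg muscle in both states. Its values were 38.3, 50.5, 48.5 and 45.8 against 22.8, 20.3, 20.8 and 30.4 in WT in the basal state (log2 fold change 0.94 ± 0.22, adjusted p = 0.021). After immobilization they were 39.4, 40.2, 45.3 and 50.5 against 18.2, 20.3 and 23.1 (log2 fold change 1.06 ± 0.23, adjusted p = 0.0196). The basal call was lost without Sesn2SkM-Tg replicate 2 (0.0747) or 3 (0.0586) or WT replicate 1 (0.0631), 2 (0.0797) or 3 (0.0692). The call after immobilization was lost without WT replicate 1 (0.0787) or 2 (0.0545).

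Gpi1 was also higher in immobilized Sesn2SkM-Tg than WT muscle, 1016, 966, 1110.5 and 1066 against 575, 698 and 623 (log2 fold change 0.72 ± 0.15, adjusted p = 0.0166, lost without WT replicate 1, 0.0735, or 3, 0.0624). Phka1 was lower there, 306, 186, 262 and 301 against 595, 542 and 550.4 (log2 fold change -1.12 ± 0.23, adjusted p = 0.0145, lost without WT replicate 1, 0.0553). Without immobilized WT replicate 1 none of the 4 calls remained. The call in Sesn1KO muscle was Ppp1r3a, lower after immobilization at 201, 313, 255 and 308 against 355, 487, 404 and 366 in WT muscle (log2 fold change -0.59 ± 0.13, adjusted p = 0.0299). It was lost without Sesn1KO replicate 1 (0.121) or 3 (0.0577) or WT replicate 2 (0.125) or 3 (0.056).

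Levels differ between genes by length as well as abundance, so they were divided by the length of the gene's merged exons. That length joins the exons of all annotated transcripts and can exceed the expressed one. Ranks and ratios between genes on this scale are therefore approximate. On this per kb scale Aldoa was the most abundant member in basal WT muscle of set 2 (5201 ± 351, SD, n = 4), followed by Eno3 (3292 ± 175), Pygm (2350.0 ± 274), Pgam2 (1927 ± 195) and Pfkm (1391 ± 112). After denervation the means were 3001 for Aldoa, 468 for Eno3, 748 for Pygm, 515 for Pgam2 and 398 for Pfkm, so Eno3 went from the second to the fourth place of these 5. At the low end lay Slc2a1 (1.70), Pfkl (1.00), Hk1 (0.913) and Pfkp (0.454), the forms of most other tissues.

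**Figure D5:**
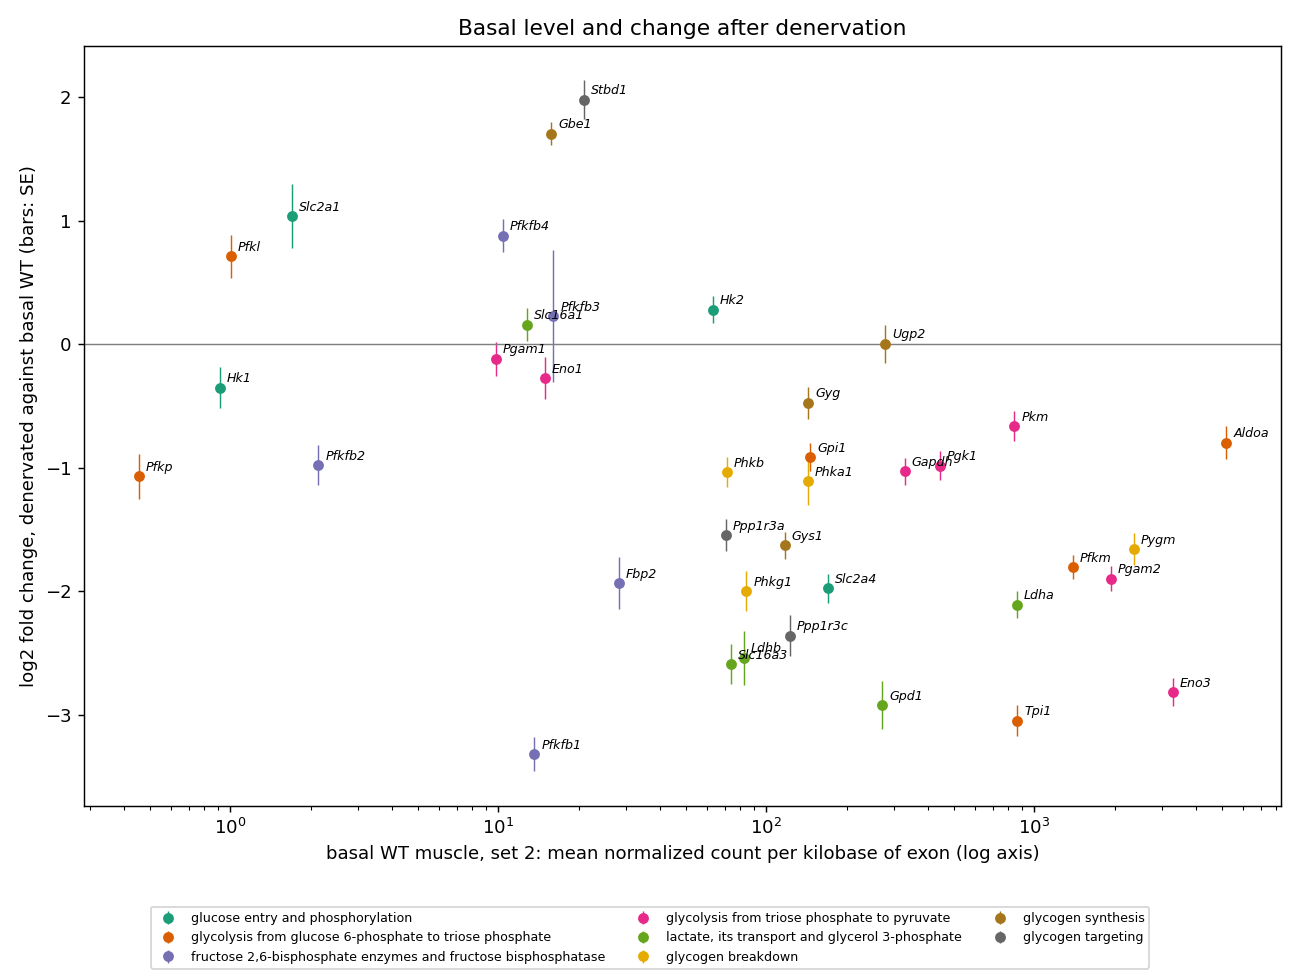
Log2 fold change after denervation in WT muscle of set 2 (vertical axis, with SE bars) against the mean basal normalized count per kb of exon (horizontal log axis) for the 38 members, coloured by role. Tpi1, Eno3 and Ldha combine high basal levels with falls of over 2 on the log2 scale, and of the higher members Stbd1 and Gbe1 lie in the lower part of the level range.

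Several ratios of a muscle-type isoform to its partner were lower in denervated muscle. Per kb, the ratio of Slc2a4 to Slc2a1 was 83.0 to 176 in basal, 28.7 to 56.8 in immobilized and 9.73 to 15.5 in denervated WT libraries of set 2. Eno3 to Eno1 was 200.1 to 249.8, 138 to 213 and 24.7 to 57.0, and Pgam2 to Pgam1 was 181 to 234, 141 to 189 and 48.1 to 71.9. Denervated libraries lay below the others on all of these ratios, while immobilized and basal libraries overlapped for both the enolase and the mutase pair. Pfkm to Pfkl was 1168 to 2126 in basal, 851 to 951 in immobilized and 205 to 273 in denervated libraries, and Slc16a3 to Slc16a1 was 4.39 to 7.73, 2.48 to 3.50 and 0.742 to 0.981 in these groups. Pfkm to Pfkp overlapped among these groups (2686 to 3325, 2191 to 3432 and 1590 to 2946). So did Ldha to Ldhb (7.97 to 20.8, 12.9 to 14.9 and 14.1 to 17.8) and Hk2 to Hk1 (54.6 to 90.6, 62.2 to 127 and 86.7 to 139). Pfkfb4 to Pfkfb1 turned over, from 0.709 to 0.900 in basal to 2.76 to 4.56 in immobilized and 14.02 to 19.1 in denervated libraries.

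Other genes of the same pathways, from a list of 43 of which 39 were in the table, were also mostly lower where they were called. In WT muscle of set 2, 13 of 37 tested were lower and 4 higher after immobilization (background 17.7% and 16.2% of all genes). After denervation 20 of 37 were lower and 4 higher (27.7% and 27.8%), and the medians on the log2 scale were -0.21 and -0.53. For WT muscle of set 1, 12 of 38 were lower and 4 higher (14.5% and 14.9%; median -0.35). Tbc1d4, a GTPase-activating protein that holds back GLUT4 vesicles, fell most after denervation (log2 fold change -3.34 ± 0.24, adjusted p = 2.37e-10), followed by Slc37a4, the glucose 6-phosphate transporter of the endoplasmic reticulum (-2.43 ± 0.23, adjusted p = 1.2e-08). Phka2, the liver alpha subunit of phosphorylase kinase (1.19 ± 0.12, adjusted p = 5.73e-08), Tbc1d1, a relative of Tbc1d4 (0.91 ± 0.13, adjusted p = 3.09e-06), and Gaa, the lysosomal glucosidase that digests glycogen (0.76 ± 0.10), rose most.

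After immobilization in set 2 the largest changes of the list were falls of Tbc1d4 (-1.94 ± 0.24), Slc37a4 (-1.89 ± 0.23) and the phosphoglucomutase listed as Pgm2 (-1.16 ± 0.19), and rises of Tbc1d1 (0.81 ± 0.13), Gsk3b (0.78 ± 0.09), a kinase that inhibits glycogen synthase, and Phka2 (0.48 ± 0.12). In set 1 they were falls of Slc37a4 (-1.69 ± 0.28), Tbc1d4 (-1.53 ± 0.37) and Bpgm (-1.28 ± 0.19), which makes 2,3-bisphosphoglycerate, and rises of Pygl (1.03 ± 0.34), Hk3 (0.97 ± 0.27) and Pygb (0.82 ± 0.20). Pygl and Hk3, the liver phosphorylase and a hexokinase of blood cells, rose in the comparison in which all 8 leukocyte markers rose, and their part was not tested. All values of this list are log2 fold changes of (normalized count + 1).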

How the data were processed

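RNA from the tibialis anterior was sequenced in 42 libraries. Per the labels and the study's methods, reads were trimmed with cutadapt 1.7.1 and checked with FastQC, reads under 30 bases were discarded, and the rest were mapped to the GRCm38 transcriptome and quantified with RSEM 1.2.20. The table the authors deposited holds a signal per gene: normalized counts made with limma (the submitters' notes also name edgeR), with no length scaling stated, so counts of whole reads were not available and no count test was run. How the authors normalized both sets, and how reads shared with gene copies were assigned, is not given in the sources used here.

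Values were analysed as log2(normalized count + 1), with a pseudocount of 1, in R 4.3.3 with limma 3.58.1 (all groups of a set in 1 linear model, empirical Bayes with trend), after dropping genes below 1 in all libraries of the set. The thresholds, an adjusted p of 0.05 and an absolute log2 fold change of 0.25, followed the study's methods. Intervals are at 95%. Tables and figures were made with Python 3.11.15, pandas 2.3.3 and matplotlib 3.10.9, and the fit was tested on simulated data. Rows without a symbol numbered 103 (0.746%). Groups came from the sample labels. Nothing used here ties a library to a separate extraction, so p-values measure the spread between labelled samples. No pair of libraries was identical. The members, the lists of other genes and the windows shown were chosen with earlier results of these data known. Full statistics were given for the 5 called members with the largest change in each direction and their isoform partners, and for the 3 largest called changes among the other pathway genes, of which some are not reported here. Alternatives were a pseudocount of 0.1, no filter or at least 1 in 3 libraries, scaling to a common total, median centring, quantile normalization, empirical Bayes without trend, a replicate block, only the groups compared, and each library left out in turn. Exon lengths and promoter windows came from GRCm38 tables.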

Additional observations from a re-analysis of the deposited data

Results flagged for a closer look

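Within each group of 4 libraries, the highest and lowest value of every member was compared with the rest of its group, and 31 of 342 sets of values had a library far outside the others. If values were independent and normally distributed, chance would flag about 1 in 20 groups, which is 17.1 of 342. Members measured in the same libraries are not independent, so the 31 cannot be judged against that number. All values are normalized counts, given with the range of the other 3 libraries. No cause of these values was tested.

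Basal WT replicate 4 of set 1 held 6 of the 31. It was high for Tpi1 (3082 against 1543 to 1664), Pgk1 (1162 against 817 to 853), Pgam2 (1892 against 1131 to 1210.3), Eno1 (84.4 against 53.3 to 56.5) and Eno3 (7524 against 4102 to 4300.4), and low for Ppp1r3a (167 against 548 to 622). Basal Sesn2SkM-Tg replicate 2 was high for Pfkl (10.4 against 5.69 to 6.36), Eno3 (8698 against 5220.0 to 5377) and Pkm (6299 against 4612 to 4893), and low for Ppp1r3a (151 against 421 to 451). In the same group, replicate 1 was low for Pfkfb4 (54.6 against 77.2 to 78.7) and replicate 4 high for Gbe1 (139 against 96.4 to 99.5).

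Basal WT replicate 4 of set 2 was high for Slc2a4 (669.6 against 557 to 570.3), Tpi1 (2555 against 2295 to 2331), Pfkfb4 (57.7 against 48.0 to 48.8), Pkm (4938 against 3958 to 4000.4) and Slc16a3 (500.1 against 342 to 369). Basal Sesn1KO replicate 1 was high for Gpi1 (1026 against 933 to 944), Tpi1 (2741 against 2331 to 2355), Eno3 (6713 against 5698 to 5829.8) and Pkm (4734 against 3846 to 3961).

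Among immobilized libraries, Sesn2SkM-Tg replicate 2 was high for Pgam1 (26.7 against 14.6 to 15.2), Eno1 (92.02 against 56.1 to 62.2) and Stbd1 (148 against 115 to 117), replicate 1 for Ppp1r3c (282 against 159 to 161) and replicate 3 for Gapdh (1513 against 1265 to 1291). Sesn1KO replicate 2 was high for Slc2a1 (23.2 against 9.01 to 9.64), Eno1 (72.2 against 40.3 to 44.3) and Ppp1r3c (259 against 214 to 218). WT replicate 2 of set 2 was high for Hk2 (522 against 437 to 449) and Ppp1r3c (217 against 155 to 163).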

How the results depend on the processing

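Counts of called members in inactive against basal muscle stayed within 1.5 times the reported count under the other settings with all libraries. With 1 library left out, the count was 17 to 23 in immobilized WT muscle of set 1 (17 without immobilized replicate 3), 24 to 27 in set 2, 31 to 34 after denervation, 28 to 29 for denervated against immobilized muscle, 19 to 29 in Sesn1SkM-Tg muscle (19 without immobilized replicate 3), 20 to 23 in Sesn2SkM-Tg muscle and 26 to 31 in Sesn1KO muscle. Genotype counts were less stable. Sesn2SkM-Tg against WT gave 1 to 5 in the basal state (1 without Sesn2SkM-Tg replicate 2 or 3 or WT replicate 1, 2 or 3, and 5 without WT replicate 4) and 0 to 4 after immobilization (0 without WT replicate 1 and 2 without WT replicate 3). Sesn1KO against WT after immobilization gave 0 to 3 (0 without Sesn1KO replicate 1 and 3 without Sesn1KO replicate 4), and 0 under both empirical Bayes without trend and a fit of only the groups compared.

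Of the 14 members lower in all 6 comparisons with basal muscle, 11 kept each call under every setting and left-out library, and Slc2a4, Phka1 and Phkb did not. Gbe1 kept all 6. Under quantile normalization 5 values changed sign: Pkm in WT muscle of set 1 (0.0052, adjusted p = 0.984), Aldoa (0.029) and Pkm (0.22) after denervation, and Pgk1 (0.016) and Pkm (0.30) for denervated against immobilized muscle. The cause was not tested. No source gives a meaning to a shared replicate number, and correlations of same-numbered deviations ran from -0.45 to 0.53. For Sesn1SkM-Tg against WT they reached 0.53 in the basal state (other pairs up to 0.27) and 0.50 after immobilization (up to 0.17). For basal Sesn2SkM-Tg against WT other pairs reached 0.58 and same-numbered ones 0.14. Whether numbers pair samples in set 1 is therefore not known. A replicate block gave 22 called members in immobilized WT muscle of set 1, 26 in Sesn1SkM-Tg and 23 in Sesn2SkM-Tg muscle, and the reported count elsewhere (28 in set 2, 32 after denervation). Read depth is not known, so counting error at low levels could not be given.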

Other observations

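Other genes of these pathways were also measured in the sestrin genotypes, as log2 fold changes of (normalized count + 1) from the limma fits. After immobilization 14 of 38 tested were lower and 5 higher in Sesn1SkM-Tg muscle (background 16.5% and 18.2% of all genes). In Sesn2SkM-Tg muscle 11 of 38 were lower and 3 higher (15.7% and 15.0%), and in Sesn1KO muscle 18 of 37 were lower and 4 higher (19.9% and 17.2%). Slc37a4, the glucose 6-phosphate transporter, had the largest fall of the list in each of these (-1.95 in Sesn1SkM-Tg, -2.24 in Sesn2SkM-Tg and -2.14 in Sesn1KO muscle). Tbc1d4 fell by 1.64 in Sesn2SkM-Tg and by 1.73 in Sesn1KO muscle. Slc2a3, the neuronal glucose transporter, fell by 1.38 in Sesn1KO muscle. Pygl (1.24), Hk3 (1.08) and the neuronal enolase Eno2 (0.79) rose most in Sesn1SkM-Tg muscle, where all 8 leukocyte markers also rose. Adpgk, which phosphorylates glucose with ADP, rose most in Sesn1KO muscle (1.18). Between genotypes, Txnip, an inhibitor of glucose uptake, was lower in basal Sesn2SkM-Tg than WT muscle (-0.95 ± 0.19, adjusted p = 0.00723).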
